A study of Homo sapiens with 20 samples.

Results

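The heat shock chaperone genes HSPA1A, HSPA1B, HSPA8, HSPH1, HSP90AA1, DNAJB1, HSPB1, BAG3 and HSF1 were followed in A549 cells, a human non-small cell lung cancer line, before and after treatment with either of 2 inducers of epithelial mesenchymal transition (EMT). These 9 genes were taken by symbol from a table of 58825 genes, and all 9 were expressed above the filter that left 20094 genes for testing. PolyA RNA was sequenced in 20 libraries, 4 for each of 5 groups. The groups were untreated control cells, cells given 0.5 mM extracellular ATP (eATP) and cells given TGF-β at 10 ng/mL, each inducer for either 2 or 6 hours. The labels give no time for the controls, so the same 4 control libraries served both times and all 4 comparisons with untreated cells share them. All groups are of 1 cell line in culture, the labels do not say that the replicates came from separate cultures, and the p-values therefore reflect only the spread of these libraries, part or all of which may be technical.

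HSPA1A and HSPA1B are neighbouring genes for nearly identical stress-inducible HSP70 proteins, which bind unfolded protein and release it in a cycle driven by ATP hydrolysis. HSPA8 encodes the constitutive HSP70 of the cytosol, DNAJB1 a J-domain protein (HSP40) that starts its cycle, and HSPH1 and BAG3 encode factors that exchange its nucleotide. HSP90AA1 encodes the inducible HSP90 of the cytosol and HSPB1 the small heat shock protein HSP27, which holds unfolding proteins in solution and binds actin filaments. HSF1 is the transcription factor that binds inverted repeats of the 5 bases nGAAn, called heat shock elements, in front of these genes when unfolded protein accumulates. In the textbook response to heat, HSPA1A, HSPA1B, HSPH1, HSP90AA1, DNAJB1, HSPB1 and BAG3 rise together.

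In these cells the genes did not move together. HSPA1A and HSPA1B fell with both inducers at 2 hours and with TGF-β at 6 hours, to 0.631 to 0.716 of the control level. HSPB1 rose 2.45-fold at 2 hours and 3.15-fold at 6 hours of TGF-β, and BAG3 rose 1.30-fold and 1.23-fold. Without replicate 1 of TGF-β at 2 hours, the log2 fold change of HSPB1 at 2 hours was 0.93 instead of 1.29. The 6-hour rise of BAG3 was no longer called without control replicate 2. DNAJB1 fell with eATP and rose with TGF-β at 2 hours. After 6 hours of eATP none of the 9 genes was called, where only 1.71% of all genes were called higher and 1.28% lower.

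The deposited counts summed to 56187614 to 75050437 per library. The lowest count of any of the 9 genes in any library was 1825, so that no value rested on few reads. Of the 8 A549 markers, ALDH1A1 stood highest at 3365 to 4018 FPKM (fragments per kilobase of transcript, scaled to library size by the authors), followed by AKR1B10 at 1856 to 3085 FPKM. The lowest of the 8 was EPCAM, at 4.48 to 6.99 FPKM. The 10 markers of immune, endothelial and fibroblast cells summed to 1.81 to 6.18 FPKM per library, most of it CD14, and CD3E and MS4A1 had a count of 0 in all 20 libraries. In the controls the CD14-led sum was 2.61 to 3.40 FPKM, against 4.06 to 4.72 FPKM at 2 hours of eATP, 3.50 to 6.18 at 2 hours of TGF-β, 1.81 to 3.17 at 6 hours of eATP and 1.86 to 2.56 at 6 hours of TGF-β, and its part in the results was not tested. Replicate 1 of TGF-β at 2 hours stood apart: the SD over genes of its log2 deviations from its group was 0.502, against 0.244 to 0.315 in the other libraries. Those deviations correlated with transcript length (r = −0.457 over 14033 genes), so that its short transcripts were high and its long transcripts low.

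Matches to the heat shock element in front of these genes show how the members differ in sequence. The RefSeq promoter table (GRCh38.p14, 250 bases before to 50 after each start) held 8 of the 9 genes, and HSF1 was not among them. Both strands were searched for 2 units, GAANNTTC or TTCNNGAA, and for 3 units, GAANNTTC followed by NNGAA (or the reverse complement), a match that also contains both 2-unit forms. HSPA8 held 2 matches of 3 units, and 0.49% of 35116 promoters held at least 1. HSPA1A, HSPA1B and HSPB1 each held 1 match of GAANNTTC, and 6.77% of all promoters held at least 1. TTCNNGAA was held by 7.74% of all promoters and, of these 8 genes, by HSPA8. The promoters of HSPH1, HSP90AA1, DNAJB1 and BAG3 held no exact match to these letters in this window. Imperfect repeats and sites outside the window were not searched, so these genes are not shown to lack heat shock elements. Over the 250 bases before the start, HSPA1A and HSPA1B were identical at 93.6% of 251 aligned positions. The matched windows are shown 5′ to 3′ on the strand of the gene, with the bases of the repeat units in capitals. They lie at chr6:31815423-31815458 (plus strand) for HSPA1A, chr6:31827619-31827654 (plus strand) for HSPA1B, chr11:123062340-123062380 and chr11:123062165-123062205 (minus strand) for HSPA8, and chr7:76302477-76302512 (plus strand) for HSPB1.
HSPA1A, from position −106: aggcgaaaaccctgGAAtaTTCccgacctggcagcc
HSPA1B, from position −105: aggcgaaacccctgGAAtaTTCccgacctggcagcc
HSPA8, from position −230: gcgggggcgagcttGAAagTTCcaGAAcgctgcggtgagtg
HSPA8, from position −55: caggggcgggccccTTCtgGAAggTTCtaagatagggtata
HSPB1, from position −182: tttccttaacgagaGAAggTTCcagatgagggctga
Positions are those of the first base in capitals, counted back from the start of the gene.

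In the controls, HSP90AA1 stood highest with 646 ± 28.1 FPKM (SD, n = 4), followed by HSPA8 with 508 ± 46.1 FPKM. HSP90AA1 ranked 31 and HSPA8 ranked 53 of the 20094 genes tested by mean control FPKM. HSPA1A (81.9 ± 1.92 FPKM), HSPB1 (72.4 ± 12.0 FPKM), HSPA1B (67.8 ± 1.40 FPKM) and DNAJB1 (65.2 ± 1.54 FPKM) came next, and each of these overlapped its neighbour in this order across libraries. HSPH1 (29.4 ± 1.37 FPKM) and BAG3 (26.2 ± 1.11 FPKM) were lower without overlapping each other, and HSF1 was lowest with 5.91 ± 1.10 FPKM. Together the 9 genes took 0.798% to 0.854% of all counts in the controls. That share was 0.684% to 0.791% at 2 hours of eATP, 0.674% to 0.787% at 2 hours of TGF-β, 0.769% to 0.858% at 6 hours of eATP and 0.691% to 0.746% at 6 hours of TGF-β. It is mostly a share of HSP90AA1, with 0.295% to 0.426% of counts, and HSPA8, with 0.213% to 0.331%.

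**Figure D1:**
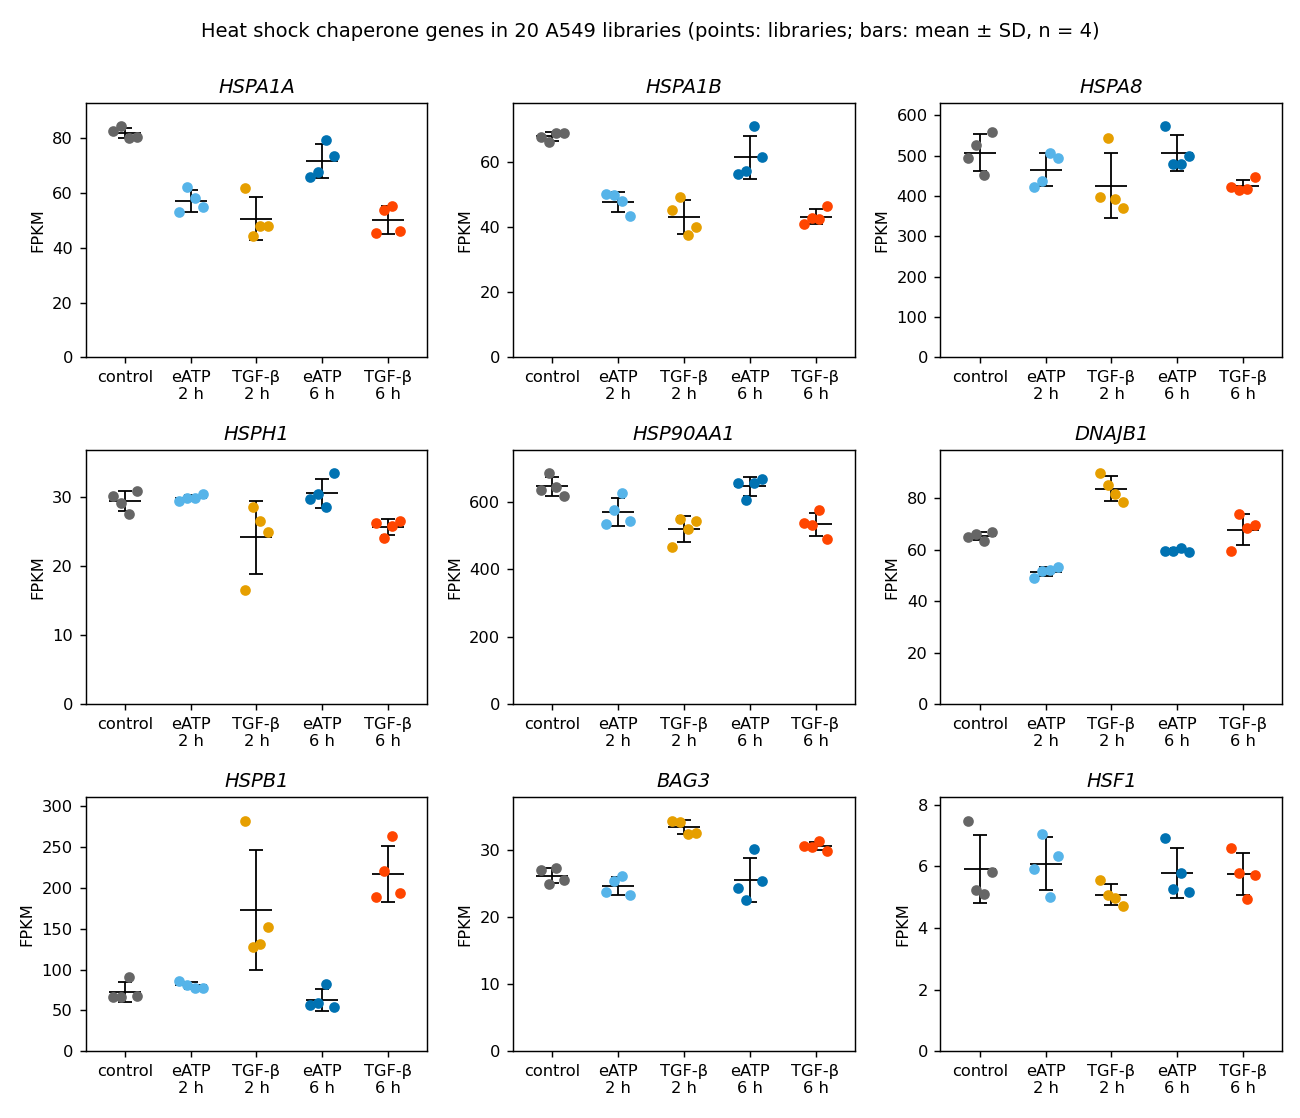
FPKM (vertical axes, from 0) of each of the 9 genes in the 20 libraries, by group; points are libraries in the order of their replicate numbers and bars are the mean ± SD of 4 libraries. HSPA1A and HSPA1B lie below the controls at 2 hours of either inducer and at 6 hours of TGF-β, HSPB1 lies above the controls in all 8 TGF-β libraries, and replicate 1 of TGF-β at 2 hours holds the highest HSPB1 (282 FPKM) and the lowest HSPH1 (16.6 FPKM).

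The inducible HSP70 genes came first. HSPA1A measured 82.6, 84.3, 80.2 and 80.5 FPKM in the controls. It measured 53.0, 62.2, 58.2 and 55.0 FPKM at 2 hours of eATP and 62.0, 44.4, 48.0 and 48.1 FPKM at 2 hours of TGF-β. No library of either treatment reached the lowest control. At 6 hours it measured 65.9, 67.6, 79.4 and 73.5 FPKM with eATP and 45.3, 53.8, 55.3 and 46.2 FPKM with TGF-β. The 6-hour eATP libraries thus lay close under the controls and the 6-hour TGF-β libraries well under both. In bulk RNA a lower level in every cell and a lower share of expressing cells cannot be told apart.

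HSPA1B followed the same order, with 65.9 to 68.9 FPKM in the controls, 43.3 to 50.0 at 2 hours of eATP, 37.5 to 49.2 at 2 hours of TGF-β, 56.3 to 70.8 at 6 hours of eATP and 40.9 to 46.4 at 6 hours of TGF-β. Reads could be split between these 2 genes by the authors' counting, because 71.2% of the 75-base words of the longest HSPA1A transcript and 73.2% of those of HSPA1B also occur in transcripts of another gene. Their individual values are uncertain for this reason, and their sum was tested as well. The summed level was 149 to 150 FPKM in the controls, 98.3 to 112 at 2 hours of eATP, 85.5 to 107 at 2 hours of TGF-β, 122 to 150 at 6 hours of eATP and 86.2 to 97.9 at 6 hours of TGF-β. The sum fell by 0.49 ± 0.086 (log2(FC) ± SE, adjusted p = 0.000835, edgeR quasi-likelihood test) at 2 hours of eATP and by 0.65 ± 0.0862 (adjusted p = 3.4e-05) at 2 hours of TGF-β. With 6 hours of TGF-β it fell by 0.61 ± 0.0861 (adjusted p = 4.2e-05), whereas with 6 hours of eATP its log2(FC) was −0.15 ± 0.0858 (adjusted p = 0.519).

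At 2 hours of eATP, 3 of the 9 genes were lower and 0 were higher than in the controls at an adjusted p under 0.05, while over all genes tested 3.79% were lower and 4.79% higher. The 3 were HSPA1A (log2(FC) −0.50 ± 0.108, adjusted p = 0.00541), HSPA1B (−0.48 ± 0.0902, adjusted p = 0.00148) and DNAJB1 (−0.32 ± 0.0669, adjusted p = 0.00412). The median log2(FC) of the 9 genes was −0.10, and that of all genes was −0.01. HSP90AA1 had a log2(FC) of −0.16 (adjusted p = 0.212) and HSPB1 of 0.17 (adjusted p = 0.784), and the other 4 genes lay between −0.10 and 0.06. The 3 calls held without any single library and under every other setting run.

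At 2 hours of TGF-β, 3 genes were higher and 3 lower, against 7.25% of all genes higher and 5.67% lower. HSPA1A (−0.66 ± 0.108, adjusted p = 0.000302), HSPA1B (−0.63 ± 0.0903, adjusted p = 7.83e-05) and HSP90AA1 (−0.29 ± 0.0695, adjusted p = 0.00781) fell. HSPB1 (1.29 ± 0.228, adjusted p = 0.000622), DNAJB1 (0.38 ± 0.0669, adjusted p = 0.000548) and BAG3 (0.38 ± 0.0813, adjusted p = 0.00378) rose. These 6 calls held without any single library and under every other setting run. HSPA8 had a log2(FC) of −0.23 (adjusted p = 0.167) and HSPH1 of −0.26 (adjusted p = 0.113), and leaving out replicate 2 of TGF-β at 2 hours brought both past the threshold (−0.36, adjusted p = 0.00916, and −0.34, adjusted p = 0.0394). HSF1 itself had a log2(FC) of −0.19 (adjusted p = 0.429). The median of the 9 genes was −0.23, against 0.02 over all genes.

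At 6 hours of eATP, 0 of the 9 genes were called higher or lower by edgeR, where 1.71% of all genes were higher and 1.28% lower. At an unadjusted p under 0.05 the count was also 0, the lowest unadjusted p of the 9 being 0.129, and DESeq2 and limma called 0 as well. HSPA1A had a log2(FC) of −0.17 ± 0.108, HSPB1 of −0.18 ± 0.224, HSPA1B of −0.12 ± 0.090 and DNAJB1 of −0.11 ± 0.0668. The other 5 genes lay between −0.01 and 0.08, and the median was −0.01 both for the 9 genes and for all genes.

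At 6 hours of TGF-β, 2 genes were higher and 2 lower, against 8.4% of all genes higher and 7.76% lower. HSPA1A (−0.63 ± 0.108, adjusted p = 0.000331) and HSPA1B (−0.58 ± 0.0903, adjusted p = 0.00012) fell. HSPB1 (1.65 ± 0.230, adjusted p = 3.18e-05) and BAG3 (0.30 ± 0.0812, adjusted p = 0.0142) rose. The BAG3 call was lost without control replicate 2 (0.27, adjusted p = 0.0547). HSP90AA1 had a log2(FC) of −0.20 ± 0.0694 (adjusted p = 0.0598), and 5 of the 11 other settings and 5 single libraries left out brought it under the threshold, among them replicate 1 of TGF-β at 2 hours (−0.21, adjusted p = 0.0225). DNAJB1 had a log2(FC) of 0.13 (adjusted p = 0.221). The median of the 9 genes was −0.12, against −0.01 over all genes.

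**Figure D2:**
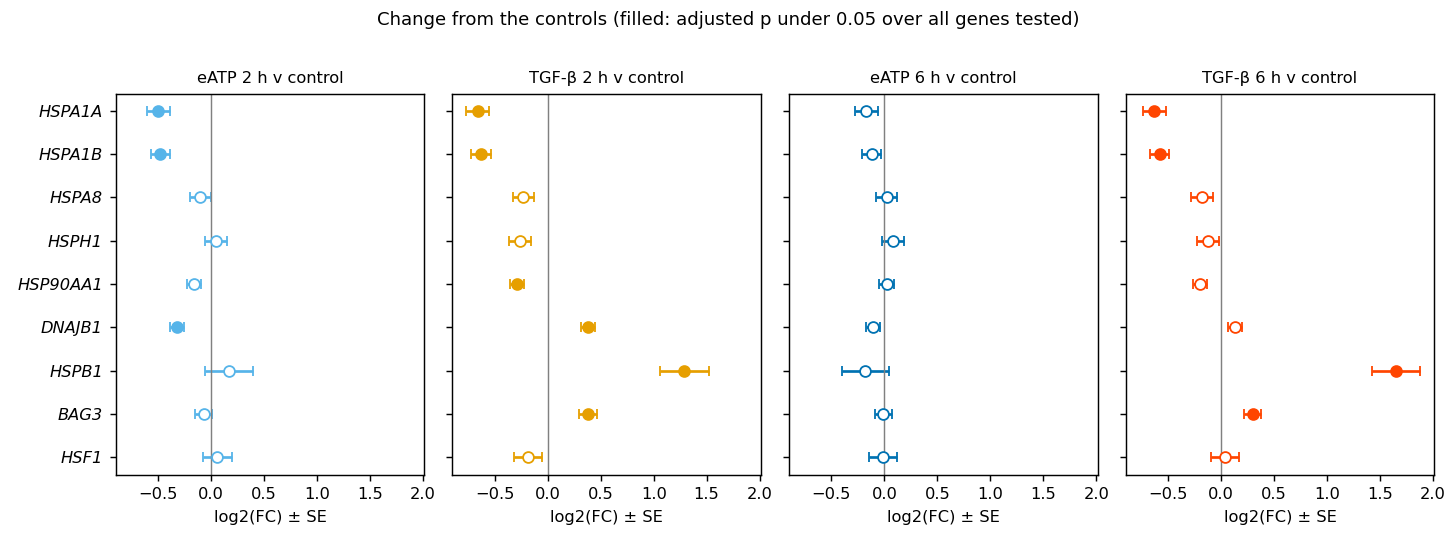
log2(FC) ± SE of the 9 genes (rows) against the 4 control libraries, in 1 panel for each treatment, with 4 libraries per group; filled points have an adjusted p under 0.05 over all 20094 genes tested. HSPA1A and HSPA1B are filled and below 0 in all panels but that of 6 hours of eATP, where no point is filled, and HSPB1 reaches 1.29 and 1.65 in the TGF-β panels.

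HSPB1, the small heat shock protein gene, had the largest change of the 9. It measured 66.0, 66.1, 90.3 and 67.2 FPKM in the controls, 85.7, 81.5, 77.1 and 77.9 FPKM at 2 hours of eATP and 56.9, 58.7, 82.5 and 53.8 FPKM at 6 hours of eATP. With TGF-β it measured 282, 128, 131 and 152 FPKM at 2 hours and 188, 220, 263 and 194 FPKM at 6 hours. All 8 TGF-β libraries lay above all 12 others. In 4 of the 5 groups the highest library was replicate 3 of the controls, of 6 hours of eATP and of 6 hours of TGF-β, and replicate 1 of 2 hours of TGF-β. In the same 4 libraries the gene deviations fell with transcript length (r = −0.33, −0.281, −0.235 and −0.457), more steeply than in the other 16, and HSPB1 has the shortest transcript of the 9 genes (1455 bases). With the length trend of each library removed, an alternative added after the data were seen, HSPB1 rose by 1.16 ± 0.148 at 2 hours (adjusted p = 1.58e-05) and by 1.60 ± 0.150 at 6 hours (adjusted p = 1.87e-07). Without replicate 1 of TGF-β at 2 hours, it rose by 0.93 ± 0.156 at 2 hours (adjusted p = 0.000465). A share of 4.78% of its 75-base words also occurs in the pseudogene HSPB1P1.

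HSPH1 has the longest transcript of the 9 (5191 bases), and its values ran the other way in replicate 1 of TGF-β at 2 hours. That group measured 16.6, 28.6, 26.5 and 25.0 FPKM, beside 27.6 to 30.8 in the controls, 29.4 to 30.5 at 2 hours of eATP, 28.6 to 33.4 at 6 hours of eATP and 24.1 to 26.6 at 6 hours of TGF-β. With the length trend removed, HSPH1 was lower at 2 hours of TGF-β (−0.21 ± 0.0639, adjusted p = 0.0321), and without replicate 1 of that group its log2(FC) was −0.13 ± 0.0574 (adjusted p = 0.177).

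DNAJB1, the HSP40 partner of HSP70, separated the inducers. It measured 64.9, 66.1, 63.2 and 66.7 FPKM in the controls, 48.8, 51.9, 52.2 and 53.1 FPKM at 2 hours of eATP and 89.5, 85.2, 81.4 and 78.3 FPKM at 2 hours of TGF-β. These 3 groups did not overlap. At 6 hours it measured 59.6, 59.3, 60.8 and 59.0 FPKM with eATP and 59.3, 73.8, 68.4 and 69.5 FPKM with TGF-β, where replicate 1 lay below the controls and the other 3 above them. From 2 to 6 hours DNAJB1 therefore moved back toward the control level from both sides.

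BAG3, the exchange factor that links HSP70 to small heat shock proteins and autophagy, measured 27.0, 25.0, 27.3 and 25.5 FPKM in the controls. It measured 34.4, 34.2, 32.4 and 32.6 FPKM at 2 hours of TGF-β and 30.6, 30.5, 31.4 and 29.9 FPKM at 6 hours of TGF-β, above every control at both times. With eATP it measured 23.7, 25.4, 26.2 and 23.3 FPKM at 2 hours and 24.3, 22.5, 30.1 and 25.4 FPKM at 6 hours, overlapping the controls.

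HSP90AA1 measured 636, 684, 645 and 618 FPKM in the controls and 465, 548, 519 and 544 FPKM at 2 hours of TGF-β, below every control. It measured 533 to 627 FPKM at 2 hours of eATP, 606 to 668 at 6 hours of eATP and 490 to 575 at 6 hours of TGF-β. Both eATP groups overlapped the controls. HSPA8 ranged from 451 to 559 FPKM in the controls, 422 to 506 at 2 hours of eATP, 478 to 572 at 6 hours of eATP and 414 to 447 at 6 hours of TGF-β. At 2 hours of TGF-β it measured 397, 544, 392 and 369 FPKM, and replicate 2 stood far above the other 3. HSF1, the regulator, stayed between 4.72 and 7.49 FPKM over all 20 libraries, and its 5 groups overlapped.

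Ratios between these genes within a library do not depend on how libraries are scaled to each other, but the length trend of each library was not removed from them. They were chosen after the changes of the single genes were seen, and are given as a description with no test. DNAJB1 over summed HSPA1A and HSPA1B was 0.436 ± 0.0095 in the controls, 0.896 ± 0.0485 at 2 hours of TGF-β and 0.726 ± 0.0382 at 6 hours of TGF-β (SD, n = 4). It was 0.492 ± 0.034 at 2 hours of eATP and 0.452 ± 0.0374 at 6 hours of eATP. HSPB1 over the same sum was 0.484 ± 0.0818 in the controls, 0.770 ± 0.0513 at 2 hours of eATP, 1.81 ± 0.567 at 2 hours of TGF-β, 0.471 ± 0.0618 at 6 hours of eATP and 2.31 ± 0.265 at 6 hours of TGF-β. This HSPB1 ratio was highest in its group in the libraries with the steepest length trends. These were replicate 3 of the controls (0.606), of 6 hours of eATP (0.55) and of 6 hours of TGF-β (2.69), and replicate 1 of 2 hours of TGF-β (2.63). For both ratios, all 4 libraries lay above all 4 controls at 2 hours of eATP and at both times of TGF-β, and the 6-hour eATP libraries overlapped the controls.

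**Figure D3:**
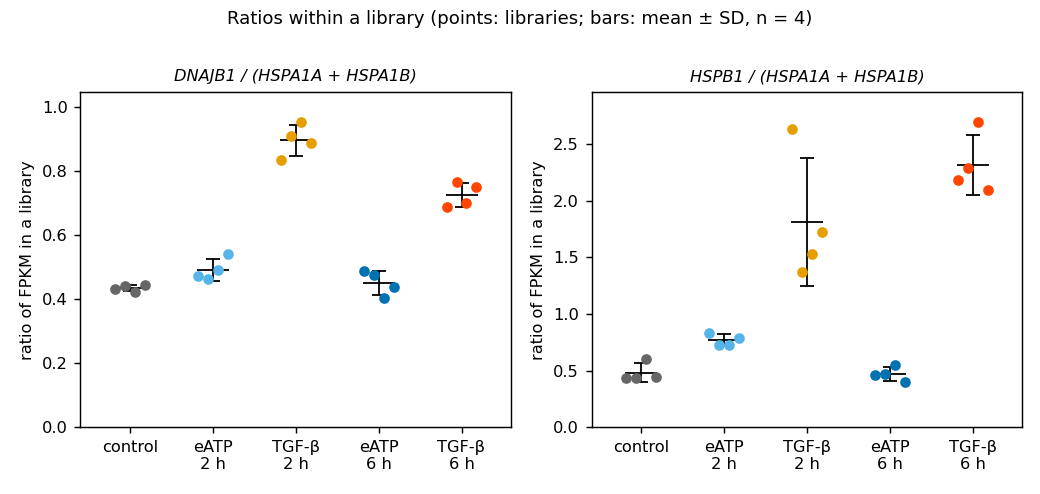
Ratio of FPKM within each library (vertical axes, from 0, no unit) of DNAJB1 (left) and HSPB1 (right) to summed HSPA1A and HSPA1B, by group; points are libraries and bars the mean ± SD of 4. The TGF-β libraries lie highest in both panels, at 0.688 to 0.952 for DNAJB1 and 1.37 to 2.69 for HSPB1, and the 6-hour eATP libraries overlap the controls.

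Between 2 and 6 hours of eATP, 2 of the 9 genes were higher at 6 hours and 0 lower, against 6.01% of all genes higher and 6.57% lower. HSPA1B rose by 0.36 ± 0.0901 (adjusted p = 0.0111). DNAJB1 rose by 0.21 ± 0.0669 (adjusted p = 0.045), a call that was lost without any one of 13 of the 20 libraries (lowest 0.18, adjusted p = 0.14, without eATP at 2 hours replicate 1). HSPA1A had 0.33 ± 0.108 (adjusted p = 0.0563), and the sum of HSPA1A and HSPA1B rose by 0.34 ± 0.0859 (adjusted p = 0.0117), which was lost without eATP at 6 hours replicate 3 (0.28, adjusted p = 0.0518). HSPA1A was called in 5 of the 11 other settings: DESeq2 (adjusted p = 0.0329), limma at both pseudocounts (0.0311 and 0.0303), the length trend removed (0.0146) and only the groups compared (0.0256). It was also called without TGF-β at 2 hours replicate 1 (0.33 ± 0.0801, adjusted p = 0.0076) or replicate 2 (adjusted p = 0.0433), libraries outside this comparison that enter the shared estimate of the spread.

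Between 2 and 6 hours of TGF-β, 1 gene was lower at 6 hours and 0 higher, against 6.58% of all genes lower and 5.49% higher. DNAJB1 fell by 0.25 ± 0.0669 (adjusted p = 0.0169), a call lost without TGF-β at 6 hours replicate 1 (−0.20, adjusted p = 0.0656). HSPB1 had 0.36 ± 0.224 (adjusted p = 0.373). Without TGF-β at 2 hours replicate 1 it rose by 0.72 ± 0.160 (adjusted p = 0.0048), so whether HSPB1 kept rising from 2 to 6 hours rests on that library. HSPA1A had 0.04 ± 0.108 and HSPA1B 0.05 ± 0.090.

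Set against eATP at 2 hours, TGF-β gave 3 higher genes and 0 lower, while 4.93% of all genes were higher and 4.16% lower. DNAJB1 was 1.63-fold higher (log2(FC) 0.70 ± 0.0672, adjusted p = 5.57e-07), HSPB1 2.17-fold higher (1.12 ± 0.227, adjusted p = 0.00254) and BAG3 1.36-fold higher (0.44 ± 0.0813, adjusted p = 0.00105). Without TGF-β at 2 hours replicate 1, HSPB1 had 0.75 ± 0.156 (adjusted p = 0.0036). HSPA1A (−0.17 ± 0.108, adjusted p = 0.409) and HSPA1B (−0.15 ± 0.090, adjusted p = 0.376) were not called apart, and without that library HSPA1A was lower with TGF-β (−0.30 ± 0.0869, adjusted p = 0.0346). HSPH1 had −0.31 ± 0.103 (adjusted p = 0.0746), and it was called lower with the length trend removed (−0.25 ± 0.0639, adjusted p = 0.0132), with upper quartile scaling (adjusted p = 0.0397), with DESeq2 (0.0384) and without TGF-β at 2 hours replicate 2 (0.0228). Without replicate 1 of that group it had −0.18 ± 0.0575 (adjusted p = 0.0623).

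At 6 hours, TGF-β against eATP gave 3 higher genes and 3 lower, with 8.97% of all genes higher and 8.66% lower. HSPB1 was 3.56-fold higher (1.83 ± 0.231, adjusted p = 9.97e-06), BAG3 had 0.31 ± 0.0813 (adjusted p = 0.00999) and DNAJB1 0.24 ± 0.0669 (adjusted p = 0.0174). HSPA1A (−0.46 ± 0.108, adjusted p = 0.00529), HSPA1B (−0.46 ± 0.0902, adjusted p = 0.00116) and HSP90AA1 (−0.22 ± 0.0695, adjusted p = 0.0319) were lower. Of these 6 calls, DNAJB1 was lost without any one of 8 libraries (adjusted p 0.0505 to 0.0767), HSP90AA1 without any one of 4 (0.053 to 0.0668) and BAG3 without eATP at 6 hours replicate 2 (0.24, adjusted p = 0.0575). DNAJB1 was also lost with no filter, with limma at either pseudocount and with only the groups compared (adjusted p 0.0513 to 0.0753), and HSP90AA1 with only the groups compared (0.0621). The calls of HSPB1, HSPA1A and HSPA1B held throughout. HSPH1 had −0.19 ± 0.103 (adjusted p = 0.235). It was called lower without TGF-β at 2 hours replicate 1 (−0.22 ± 0.053, adjusted p = 0.0062), a library outside this comparison.

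The change from 2 to 6 hours differed between the inducers for 1 of the 9 genes, with 3.02% of all genes called lower and 3.1% higher in this interaction. DNAJB1 fell with TGF-β and rose with eATP (interaction −0.46 ± 0.0946 on the log2 scale, adjusted p = 0.00455), a difference that held without any single library and under every other setting. HSPB1 had an interaction of 0.71 ± 0.317 (adjusted p = 0.256), which was called without TGF-β at 2 hours replicate 1 (1.07 ± 0.216, adjusted p = 0.00358) and with the length trend removed (0.81 ± 0.207, adjusted p = 0.0178). HSPA1B had −0.31 ± 0.127 (adjusted p = 0.207) and HSPA1A −0.29 ± 0.153 (adjusted p = 0.375).

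**Figure D4:**
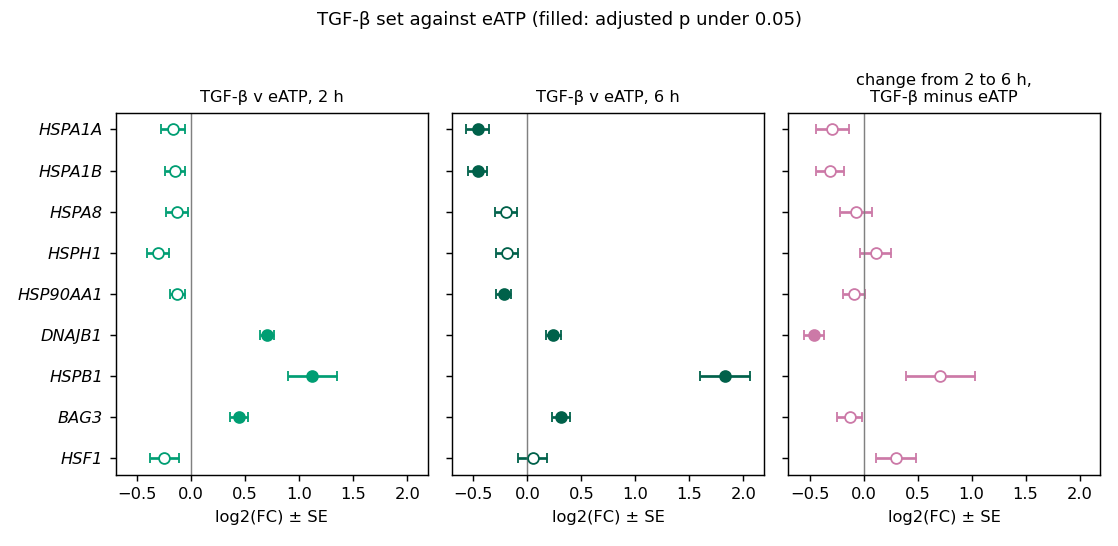
log2(FC) ± SE of the 9 genes for TGF-β against eATP at 2 hours (left) and 6 hours (middle), and the interaction of inducer and time, as in the text (right), with 4 libraries per group; filled points have an adjusted p under 0.05. DNAJB1, HSPB1 and BAG3 lie above 0 at both times, HSPA1A and HSPA1B are filled at −0.46 at 6 hours, and DNAJB1 alone is filled on the right.

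A wider list of 28 textbook heat-inducible genes includes all of the 9 but HSF1. It thus counts HSPA8, described above as constitutive, and it also counts the constitutive HSP90AB1. At 2 hours of eATP 2 of the 28 rose and 4 fell, beside 4.79% and 3.79% of all genes. At 2 hours of TGF-β 5 rose and 6 fell, beside 7.25% and 5.67%. By 6 hours, 0 rose and 2 fell with eATP, beside 1.71% and 1.28%, and 5 rose and 4 fell with TGF-β, beside 8.4% and 7.76%. These shares over all genes are also the background of the lists that follow. The median log2(FC) of the 28 was −0.13, −0.09, −0.05 and −0.05 in that order, beside −0.01, 0.02, −0.01 and −0.01 over all genes. The genes that rose with TGF-β at both times include CRYAB, whose control mean lay under the filter of 0.1 FPKM. HSPB8, a small heat shock protein that works with BAG3, rose by 1.09 ± 0.0656 at 2 hours of eATP (adjusted p = 2.33e-09), by 1.13 ± 0.0657 at 2 hours of TGF-β (adjusted p = 7.94e-10) and by 0.91 ± 0.0654 at 6 hours of TGF-β (adjusted p = 8e-09). At 6 hours of eATP it fell by 0.48 ± 0.0652 (adjusted p = 0.00023). Its mean level was 8.14 FPKM in the controls and 17.1, 17.5, 5.75 and 14.5 FPKM after the 4 treatments in the same order. DNAJB4, another HSP40 gene, rose at 2 hours of eATP (0.70 ± 0.187, adjusted p = 0.0238). HSP90AB1, the constitutive HSP90, was lower at 6 hours of eATP (−0.22 ± 0.0528, adjusted p = 0.0297). HSPA6, the most strictly heat-induced HSP70 gene, had −0.01 ± 0.435, −0.13 ± 0.436, 0.37 ± 0.433 and −0.73 ± 0.444 after the 4 treatments, none of them called.

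**Figure D5:**
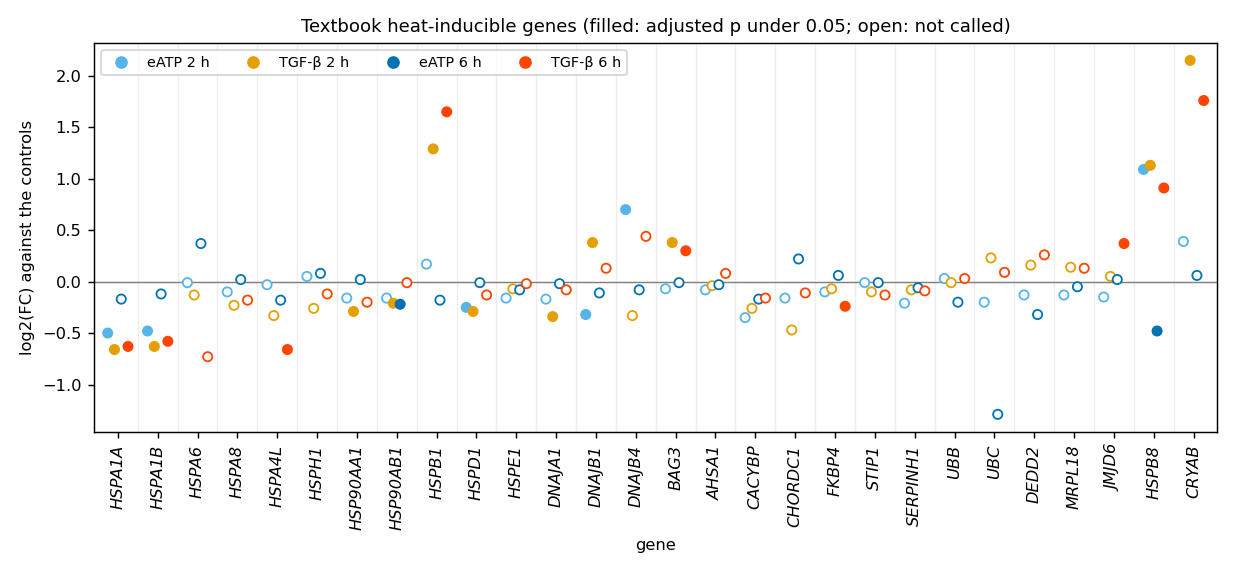
log2(FC) against the controls (vertical axis) of 28 textbook heat-inducible genes (horizontal axis) after each of the 4 treatments, by colour; filled points have an adjusted p under 0.05 and open points do not. Filled points lie on both sides of 0, HSPB1, HSPB8 and CRYAB highest with TGF-β and HSPA1A, HSPA1B and HSPA4L lowest.

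Of the small heat shock proteins, 4 of 10 were tested. With TGF-β 3 of the 4 rose at both times (median log2(FC) 1.21 and 1.28), HSPB1, HSPB8 and CRYAB (2.15 ± 0.429, adjusted p = 0.00197, and 1.76 ± 0.427, adjusted p = 0.00661). CRYAB, the lens crystallin chaperone, was rare, at 0.0453 FPKM in the controls and 0.206 and 0.148 FPKM with TGF-β. Its control mean lay under the filter of 0.1 FPKM and its TGF-β means above it. Its place among the genes tested, and so in this count and these medians, is therefore not independent of its rise. With eATP 1 of the 4 rose at 2 hours and 1 fell at 6 hours, HSPB8 in both cases. Over all genes 7.25% and 8.4% rose with TGF-β at 2 and 6 hours, 4.79% rose with eATP at 2 hours and 1.28% fell at 6 hours.

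In the HSP70 and HSP110 family (16 tested), 1 gene rose and 2 fell with eATP at 2 hours, 1 rose and 3 fell with TGF-β at 2 hours, and 2 rose and 4 fell with TGF-β at 6 hours, with medians of −0.05, −0.22 and −0.19. Over all genes the shares higher and lower were 4.79% and 3.79%, 7.25% and 5.67%, and 8.4% and 7.76%. With eATP at 6 hours 0 were called, and HSPA8, its most abundant member, had 0.02 ± 0.102. HSPA5, the HSP70 of the endoplasmic reticulum (BiP), went opposite to HSPA1A, with rises of 0.20 ± 0.0593 at 2 hours of eATP (adjusted p = 0.047), 0.30 ± 0.0593 at 2 hours of TGF-β (adjusted p = 0.00198) and 0.41 ± 0.0594 at 6 hours of TGF-β (adjusted p = 5.63e-05). HSPA4L, a relative of HSPH1, fell at 6 hours of TGF-β (−0.66 ± 0.120, adjusted p = 0.00053).

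Among the 16 chaperones of the endoplasmic reticulum, 2 rose with eATP at 2 hours, 2 with TGF-β at 2 hours and 4 with TGF-β at 6 hours, beside 4.79%, 7.25% and 8.4% of all genes. In these treatments 0 of the 16 fell, beside 3.79%, 5.67% and 7.76% of all genes. Beside HSPA5 these were DNAJB9 with eATP (0.64 ± 0.0788, adjusted p = 1.77e-05), the lectin chaperone gene CALR at 2 hours of TGF-β (0.24 ± 0.072, adjusted p = 0.0337), and the secreted stress factor gene MANF (0.44 ± 0.147, adjusted p = 0.0485), DNAJC3 (0.25 ± 0.0817, adjusted p = 0.0395) and PDIA3 (0.18, adjusted p = 0.0275) at 6 hours of TGF-β. With eATP at 6 hours 0 were called, and HSP90B1, the most abundant, had 0.18 ± 0.0744. The median of the list was 0.10, 0.16, 0.11 and 0.06 at 2 hours of eATP, 2 hours of TGF-β, 6 hours of eATP and 6 hours of TGF-β.

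Of the J-domain genes (23 tested), 3 rose and 4 fell with eATP at 2 hours, 3 rose and 3 fell with TGF-β at 2 hours, and 2 rose and 1 fell with TGF-β at 6 hours, while 0 were called with eATP at 6 hours. All genes had 4.79% higher and 3.79% lower, 7.25% and 5.67%, 8.4% and 7.76%, and 1.71% and 1.28% in the same order. DNAJB2, an HSP40 with ubiquitin-interacting motifs, rose in the 3 treatments with calls, by 0.71 ± 0.149 (adjusted p = 0.00413), 1.35 ± 0.151 (adjusted p = 4.56e-06) and 1.21 ± 0.150 (adjusted p = 8.59e-06). DNAJC6, the auxilin gene, rose at 2 hours of TGF-β (0.92 ± 0.208, adjusted p = 0.00521), and DNAJC16 fell at 6 hours of TGF-β (−1.42 ± 0.382, adjusted p = 0.0137). DNAJA1, the most abundant of them, had −0.02 ± 0.0553 at 6 hours of eATP.

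Of the 13 HSP70 cochaperones and exchange factors, 0 rose and 2 fell with eATP at 2 hours, 1 rose and 2 fell with TGF-β at 2 hours, and 2 rose and 2 fell with TGF-β at 6 hours. The shares of all genes higher and lower were 4.79% and 3.79%, 7.25% and 5.67%, and 8.4% and 7.76%. BAG2, which inhibits the HSP70-bound ubiquitin ligase CHIP, fell by 0.51 ± 0.119 (adjusted p = 0.00947), 0.71 ± 0.120 (adjusted p = 0.000397) and 0.52 ± 0.119 (adjusted p = 0.00471) in these treatments. BAG4 fell at 2 hours of eATP (−0.39 ± 0.0823, adjusted p = 0.00472) and of TGF-β (−0.44 ± 0.0824, adjusted p = 0.00118), and BAG1 at 6 hours of TGF-β (−0.46 ± 0.113, adjusted p = 0.00776). Beside BAG3, BAG6 was the second gene called higher at 6 hours of TGF-β (0.20 ± 0.0657, adjusted p = 0.0442). With eATP at 6 hours 0 were called, and ST13 had −0.07 ± 0.0625.

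In the HSP90 family and its cochaperones (20 tested), 1 was higher and 0 lower at 2 hours of eATP (CDC37L1, 0.39 ± 0.0766, adjusted p = 0.00259). At 2 hours of TGF-β 0 were higher and 2 lower, HSP90AA1 and HSP90AB1 (−0.21 ± 0.0528, adjusted p = 0.0105). With eATP at 6 hours TTC4 was higher (0.31 ± 0.0744, adjusted p = 0.0296) and HSP90AB1 lower. With TGF-β at 6 hours, UNC45A was higher (0.30 ± 0.0933, adjusted p = 0.0327), and FKBP5 (−0.66 ± 0.124, adjusted p = 0.000783) and FKBP4 (−0.24 ± 0.0716, adjusted p = 0.027), immunophilins of steroid receptor complexes, were lower. The background shares of higher and lower genes for these 4 treatments, in the order given, were 4.79% and 3.79%, 7.25% and 5.67%, 1.71% and 1.28%, then 8.4% and 7.76%.

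A list of 16 genes held the chaperonins, which form the folding chambers of mitochondria and cytosol. It also held the prefoldin genes PFDN1, PFDN2, PFDN4, PFDN5, PFDN6 and VBP1. Of these 16 genes, 0 were called higher against the controls. Over all genes 4.79%, 7.25%, 1.71% and 8.4% were called higher (eATP and TGF-β at 2 hours, then at 6 hours). Called lower were 2 at 2 hours of eATP and 3 at 2 hours of TGF-β, beside 3.79% and 5.67% of all genes, and the medians were −0.14 and −0.05. HSPD1 (HSP60) and CCT6A were lower at 2 hours of eATP (−0.25 ± 0.0554, adjusted p = 0.00711, and −0.19 ± 0.0518, adjusted p = 0.0233). HSPD1 (−0.29 ± 0.0554, adjusted p = 0.00124), TCP1 (−0.34 ± 0.109, adjusted p = 0.0471) and CCT6A (−0.20 ± 0.0518, adjusted p = 0.0153) were lower at 2 hours of TGF-β. At 6 hours 0 were called with either inducer, HSPD1 having −0.01 ± 0.0553 with eATP and −0.13 ± 0.0554 with TGF-β. Of the 10 heat shock factors and HSF1 regulators, HSF2 was lower at 2 hours of TGF-β (−0.79 ± 0.183, adjusted p = 0.00656) and HSF2BP higher at 6 hours of TGF-β (0.78 ± 0.239, adjusted p = 0.0317). Over all genes 5.67% were lower and 8.4% higher in those comparisons. With eATP 0 of the 10 were called, and HSBP1 had −0.06 ± 0.102 at 2 hours.

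Over the 20 libraries, the genes whose log2(CPM + 1) was most like that of each member were sought in the 11563 genes whose mean reached 1 FPKM. The libraries of a group share their treatment and are not independent, so these correlations are given as a description. Some of them also reflect spread within a group. At 2 hours of TGF-β, HSPH1 was lowest in replicate 1 (16.6 FPKM), and HSPA8 stood at 544 FPKM in replicate 2 and at 369 to 397 FPKM in the others. The groups of HSF1 overlapped. HSPB1 was followed by RHOD, HOMER3 and SDC1 (Pearson r = 0.97 for each). HSPA1A was followed by FARSB (0.92), TTLL12 (0.91) and POLR1E (0.89), and HSPA1B by FOXA2 (0.90), TTLL12 and ING2 (0.89 for both). DNAJB1 was nearest to BAMBI (0.94) and SAMD1 (0.91), and BAG3 to HOXD11 (0.92), UGP2 and SAMD1 (0.91 for both). HSP90AA1 was nearest to DDX55 (0.90), ANXA3 and PDCD7 (0.88 for both), and HSPA8 to PEX5 (0.81), the mitochondrial HSP40 gene DNAJA3 (0.80) and BTRC (0.76). HSPH1 was nearest to SLK (0.97), DDX21 and USP16 (0.96 for both). HSF1 had the weakest likeness of the 9, to DNAJC11 (0.76) and DPAGT1 (0.63). For DNAJB1 and HSF1, 1 further gene each, known only by a clone name, is not listed.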

How the data were processed

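Stranded polyA libraries of A549 cells were grouped by the treatment label, with 4 numbered replicates per group; the number differs from that in the study's text. The authors deposited 1 table with a read count and an FPKM value per gene and library. The deposited counts are whole numbers and were not normalized, and the deposited FPKM values are scaled by the authors to transcript length and library size. HISAT2, StringTie and edgeR are listed in the submitters' processing notes, with neither version nor role; genome build, annotation and the use of strand in counting: not given in the sources used here. Genes reaching 0.1 FPKM in 4 or more of the 20 libraries were tested on counts with TMM scaling and edgeR 4.0.16 (quasi-likelihood test, R 4.3.3) in 1 model of 5 group means with 15 residual degrees of freedom. SE is the log2(FC) over the root of F. A gene was called at a two-sided Benjamini-Hochberg adjusted p under 0.05 over all genes tested. FPKM served for levels, order and ratios. The alternatives were no filter or 1 FPKM, upper quartile or DESeq2 scaling, DESeq2 1.42.0, limma 3.58.1 on log2(FPKM + 0.1) or log2(FPKM + 1), robust estimation, the replicate block, only the groups compared, and leaving out each library. Removing each library's trend with GENCODE 29 transcript length was added after the data were seen. The fit was tested on simulated data. Replicate libraries differed by more than counting noise (chi-square per degree of freedom 57.1 to 346), so none was merged. The members and the other lists were chosen with earlier results of these data known. Named beside the 9 genes are, per list and comparison with controls, up to 3 called genes with the largest change, or the most abundant if none was called, and per member the 3 nearest in log2(CPM + 1); HSPA6, PDIA3 and BAG6 were added after their values were seen. A549 markers (8 genes) had 1 called gene, AKR1B10, at 2 hours (−0.21) and 6 hours (−0.53) of TGF-β, and the other cell type markers had CDH5 (1.37) at 2 hours of eATP and CD14 (0.78) at 2 hours of TGF-β.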

Additional observations from a re-analysis of the deposited data

Results flagged for a closer look

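Of 45 groups of 4 libraries checked with Dixon's ratio, 4 held a library far from its replicates, where chance gives about 1 in 20. HSPB1 did so in control replicate 3 (90.3 FPKM, the other 3 at 66.0 to 67.2), in TGF-β at 2 hours replicate 1 (282 FPKM, the others at 128 to 152) and in eATP at 6 hours replicate 3 (82.5 FPKM, the others at 53.8 to 58.7). HSPA8 did so in TGF-β at 2 hours replicate 2 (544 FPKM, the others at 369 to 397).

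The inducers differed by direct test in 10 cases, with the 9 genes tested at 2 hours, at 6 hours and in the interaction. Over all genes 4.93% were higher and 4.16% lower at 2 hours, and 8.97% and 8.66% at 6 hours. In the interaction the shares were 3.1% and 3.02%. DNAJB1 differed between them in the change from 2 to 6 hours by −0.46 on the log2 scale (TGF-β minus eATP). At 2 hours TGF-β was above eATP for DNAJB1 by 0.70, HSPB1 by 1.12 and BAG3 by 0.44. At 6 hours TGF-β was above eATP for HSPB1 by 1.83, BAG3 by 0.31 and DNAJB1 by 0.24, and its log2(FC) against eATP was −0.46 for HSPA1A, −0.46 for HSPA1B and −0.22 for HSP90AA1. The 6-hour calls of DNAJB1, HSP90AA1 and BAG3 were lost in some refits, as given above.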

How the results depend on the processing

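The alternatives comprised 11 other settings and 20 refits without 1 library each. The counts of called genes against the controls stayed within 1.5 times, at 3 for eATP at 2 hours, 6 to 8 for TGF-β at 2 hours, 0 for eATP at 6 hours and 3 to 5 for TGF-β at 6 hours. For eATP at 6 against 2 hours 2 genes were called, and 1 with no filter, with the filter of 1 FPKM, with upper quartile scaling and with the replicate block; 3 were called with DESeq2, with limma at both pseudocounts, with the length trend removed and with only the groups compared (1 to 3 without 1 library). For TGF-β at 6 against 2 hours 1 gene was called, and 0 with only the groups compared, where DNAJB1 had −0.27 (adjusted p = 0.188) (0 to 2 without 1 library). For the interaction 1 gene was called, and 2 with the length trend removed (1 to 2 without 1 library).

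The sum of HSPA1A and HSPA1B for TGF-β against eATP at 2 hours was called with the length trend removed (−0.225) and ranged from −0.252 to −0.111 without 1 library. For eATP at 6 against 2 hours it ranged from 0.284 to 0.388. For TGF-β at 6 against 2 hours its log2(FC) of 0.043 turned to −0.004 with upper quartile scaling and to −0.001 and −0.002 with limma, and ranged from −0.019 to 0.121. The cause was not tested.

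Every other change of direction was of an uncalled value near 0. With eATP at 6 hours these were HSPA8 (−0.002 with limma at both pseudocounts), BAG3 (0.001 with the length trend removed) and HSF1 (0.005 with no filter, with DESeq2 size factors and with DESeq2). HSF1 turned to −0.025 and −0.023 with limma at 6 hours of TGF-β and to −0.004 with limma for TGF-β against eATP at 6 hours. HSPA1A for TGF-β at 6 against 2 hours turned to −0.003 with the filter of 1 FPKM, −0.014 with upper quartile scaling and −0.006 with limma. Without 1 library, the ranges that crossed 0 were −0.015 to 0.202 (HSF1, eATP at 2 hours), −0.029 to 0.077, −0.093 to 0.056 and −0.091 to 0.133 (HSPA8, BAG3 and HSF1, eATP at 6 hours), −0.032 to 0.165 (HSF1, TGF-β at 6 hours), −0.017 to 0.065, −0.030 to 0.114 and −0.161 to 0.007 (HSPH1, BAG3 and HSF1, eATP at 6 against 2 hours), −0.043 to 0.156, −0.027 to 0.102, −0.013 to 0.168 and −0.002 to 0.213 (HSPA1A, HSPA1B, HSPA8 and HSPH1, TGF-β at 6 against 2 hours), −0.024 to 0.124 (HSF1, TGF-β against eATP at 6 hours), and −0.144 to 0.044 and −0.035 to 0.182 (HSPA8 and HSPH1, interaction).

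The replicate numbers did not pair the libraries across all groups: 7 of 40 same-numbered pairs had a correlation of deviations over 0.1 (−0.274 to 0.252). Among the controls, eATP at 6 hours and TGF-β at 6 hours, every pair of replicates 3 was over 0.1 (0.252, 0.191 and 0.177). The same held for replicates 4 of these groups (0.121, 0.156 and 0.115). Replicate 3 of TGF-β at 2 hours had −0.274, −0.252 and −0.205 with replicates 3 of the same groups. The deviations of those replicates 3 correlated with transcript length at r = −0.33, −0.281 and −0.235. In replicate 3 of TGF-β at 2 hours r was 0.352, and in replicates 4 of the same groups it was 0.181, 0.199 and 0.255. The cause of the correlations between libraries was not tested. With the replicate block DNAJB1 at 6 against 2 hours of eATP had 0.212 (adjusted p = 0.0725), and no other call of the 9 genes changed. Over all genes, calls for eATP at 6 hours went from 600 to 1106 with DESeq2, 941 with the length trend removed and 1022 without TGF-β at 2 hours replicate 1. With only the groups compared, calls went from 2595 to 1318 for TGF-β at 2 hours, from 2425 to 941 for TGF-β at 6 against 2 hours and from 1825 to 1141 for TGF-β against eATP at 2 hours. At 6 hours of TGF-β limma put 40.8% (offset 0.1) and 41.3% (offset 1) of calls higher, against 52% by edgeR.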
